A study of Mus musculus with 9 samples.

Results

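Genes of synaptic vesicles and of the SNARE membrane fusion machinery were compared between ribosome-bound mRNAs of astrocyte perivascular endfeet and of whole astrocytes. They were taken as the protein-coding genes whose symbols name synaptotagmins (Syt), synapsins (Syn1 to Syn3), vesicle-associated membrane proteins (Vamp), syntaxins (Stx), the SNAP proteins Snap23, Snap25, Snap29, Snap47 and Snap91, complexins (Cplx1 to Cplx4), Sv2a to Sv2c, Rab3a to Rab3d and synaptophysin (Syp). The annotation holds 60 such genes. Counts were used for 58 of them, of 22092 genes in all, and Vamp7 and Vamp9 were not analysed here.

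mRNAs were purified by TRAP (translating ribosome affinity purification), in which ribosomes that carry a GFP-tagged ribosomal protein are captured with GFP antibodies together with the mRNAs bound to them. All samples came from Aldh1l1:L10a-eGFP mice (strain Aldh1L1 JD130, genotype tg:Aldh1L1-L10aGFP) at 2 months of age, so the transgene was carried by both groups and no library came from mice without it. The transgene is a bacterial artificial chromosome in which the promoter of the astrocyte gene Aldh1l1 drives the tag, and RNA that sticks without tagged ribosomes cannot be told apart from captured mRNA. Whole astrocyte TRAP was made in 3 libraries, each from the brain of 1 mouse without choroid plexus, and endfeet TRAP in 6 libraries, each from mechanically purified brain vessels of several mice, pooled, to which endfeet stay attached. The labels number the libraries and name no batch, and p-values measure the spread between these libraries.

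Chemical synapses store transmitter in vesicles, and fusion with the plasma membrane is driven by a SNARE complex. In neurons this complex is built from a vesicle VAMP, a plasma membrane syntaxin and Snap25, complexins bind it, and a calcium-binding synaptotagmin triggers release. Every cell uses related VAMPs, syntaxins and SNAP proteins for its own traffic between the Golgi, endosomes, lysosomes and the cell surface, and in astrocytes Vamp3 and Snap23 are the members most often named for exocytosis. Many of the genes studied are textbook neuronal genes, so neuron marker genes are given beside them.

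Whole astrocyte libraries held 35984144 to 43521208 counts in genes, and endfeet libraries were shallower, with 2319495 to 13450588. Levels are given as CPM, that is, as counts scaled to the same total in every library. A level of 3 counts, taken as the smallest amount that can be seen, was 0.0689 to 0.0834 CPM and 0.223 to 1.29 CPM, and it covers counting error only. The spread between libraries was wider in endfeet TRAP, with a common edgeR dispersion (squared biological variation) of 0.705 against 0.014. The edgeR test used the same dispersion of a gene for both groups, so its p-values do not reflect the spread of each group by itself. Summed markers of endothelial cells stood at 2750 to 5940 CPM in endfeet TRAP and 7.64 to 9.60 CPM in whole astrocyte TRAP, those of mural cells at 3360 to 8450 against 44.2 to 50.6, those of fibroblasts at 776 to 1460 against 30.2 to 45.8, and those of microglia and macrophages at 266 to 574 against 25.9 to 31.3. Summed markers of antibody-secreting cells stood at 1040 to 6050 against 52.7 to 66.1 CPM, with the highest value in endfeet library 6, and those of ependymal cells at 293 to 350 against 51.4 to 71.4. Astrocyte markers overlapped in sum, at 12000 to 31800 and 25500 to 27400 CPM, but not gene by gene. Of 12 astrocyte markers 5 were lower, among them Sox9 at −3.27 and Aldh1l1 at −2.38 (named after their values were seen), and 1 was higher, the endfoot water channel Aqp4 at 1.67. Their median log2 fold change was −0.69. Markers of oligodendrocytes and their precursors stood in sum at 476 to 738 and 724 to 744 CPM, but again not gene by gene. Of 11 such markers 1 was lower, Cnp at −2.19. Those higher were 2, Cspg4 at 5.40 and Pdgfra at 4.06, which is also among the fibroblast markers. Beside these counts of astrocyte and oligodendrocyte markers, 13.9% of all genes tested were called lower and 20.7% higher. Of 8 mast cell markers 3 were at 0 in every endfeet library, and the summed level was 5.55 to 27.2 against 5.17 to 7.44 CPM, while pinealocyte markers stood at 0 to 24.7 against 10.9 to 13.9. The part of these other cells in the differences below was not tested, and fewer cells of a type and less RNA per cell cannot be told apart.

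For called members whose groups of libraries did not overlap, the stretch of up to 250 bases before the transcription start was considered. It had to lie free of untranslated and coding sequence for at least the first 200 bases. No RefSeq promoter was matched for 12 members, among them Vamp2, Snap25 and Syt7. Of the 7 called members that remained, those with the largest change in each direction are shown. Lower members with larger changes, among them Vamp2, Syt17 and Snap47, are thus not shown. The sequences are RefSeq's of build GRCm38.p6, read 5′ to 3′ on the gene's strand, and capitals mark the GC box, GGGCGG on either strand. Syt15 is at chr14:34219796-34220045 on the plus strand, Rab3d at chr9:21918193-21918433 on the minus strand, Vamp1 at chr6:125215331-125215550 on the plus strand and Rab3a at chr8:70754453-70754678 on the plus strand. The Syt15 stretch lies directly before the start of its counted transcript and within an exon of a non-coding Syt15 transcript.
Syt15: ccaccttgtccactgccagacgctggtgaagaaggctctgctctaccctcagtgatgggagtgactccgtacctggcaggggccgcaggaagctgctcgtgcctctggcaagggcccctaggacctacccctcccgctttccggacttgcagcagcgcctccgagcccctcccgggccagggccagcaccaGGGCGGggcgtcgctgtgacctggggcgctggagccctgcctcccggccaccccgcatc
Rab3d: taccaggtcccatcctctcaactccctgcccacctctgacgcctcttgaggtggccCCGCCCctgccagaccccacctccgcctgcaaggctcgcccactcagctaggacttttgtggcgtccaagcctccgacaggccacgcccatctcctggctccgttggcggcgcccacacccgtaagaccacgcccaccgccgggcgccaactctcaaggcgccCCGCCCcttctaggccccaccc
Vamp1: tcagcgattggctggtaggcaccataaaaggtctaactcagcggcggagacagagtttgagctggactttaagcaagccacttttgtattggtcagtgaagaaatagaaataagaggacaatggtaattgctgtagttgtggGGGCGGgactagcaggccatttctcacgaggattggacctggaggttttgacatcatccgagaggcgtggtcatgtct
Rab3a: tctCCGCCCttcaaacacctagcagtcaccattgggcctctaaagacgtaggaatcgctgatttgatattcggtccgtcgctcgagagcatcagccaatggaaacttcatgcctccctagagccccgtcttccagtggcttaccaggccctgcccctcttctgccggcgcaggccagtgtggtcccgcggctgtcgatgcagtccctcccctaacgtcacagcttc

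Syt15 and Rab3d, which were higher in endfeet TRAP, had 70.0% and 69.3% G and C in these stretches, with 15 and 17 CpG. Vamp1 and Rab3a, which were lower, had 48.6% and 58.8%, with 7 and 14 CpG, and the medians over all 32851 mouse promoters of 250 bases were 52.4% and 6. A GC box was found in 32.7% of all promoters. Among the tested members that matched a RefSeq promoter, it was found in 3 of 4 members called higher, 3 of 8 called lower and 26 of 32 not called. The share was thus highest among members that did not pass. A member was counted if any of its promoters held the letters, while the share over all promoters counts each promoter by itself. For this and the following motifs, the member counts are therefore not directly comparable with that share. The CCAAT letters, on either strand, were found in 33.8% of all promoters and in 1 of 4, 3 of 8 and 12 of 32 members. The E-box CACGTG was found in 6.02% of all promoters and in 0 of 4, 0 of 8 and 6 of 32, and TATAAA in 12.4% of all promoters and in 0 of 4, 1 of 8 and 3 of 32. TGACG was found in 17.8%, and in 2 of 4, 1 of 8 and 9 of 32. These matches describe the letters of the windows and not sites of binding.

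The comparison of endfeet TRAP with whole astrocyte TRAP asks which of these mRNAs were relatively more or less frequent on ribosomes at the vascular interface. The neuronal SNAREs Vamp2, Snap25 and Vamp1 were lower in endfeet TRAP, while synaptotagmins 7 and 15 and Rab3d were higher. Classic vesicle membrane genes such as Syp, Syt1 and Sv2b did not pass the test. Of the 55 members with enough counts, 6 were higher and 12 were lower in endfeet TRAP (edgeR quasi-likelihood test, adjusted p at most 0.05), and 37 did not pass. Over all 14427 genes tested, 20.7% were called higher and 13.9% lower. The members were thus called higher less often, and lower more often, than the genes at large, as a description with no test. The median log2 fold change was −0.32 over the members and 0.10 over all genes tested, and 35 members had a negative and 20 a positive value. In 17 of the tested members all endfeet libraries lay below all whole astrocyte libraries, which held for 25.7% of all genes, and in 4 members all endfeet libraries lay above, which held for 17.7%. The log2 fold changes are plotted by role.

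**Figure D1:**
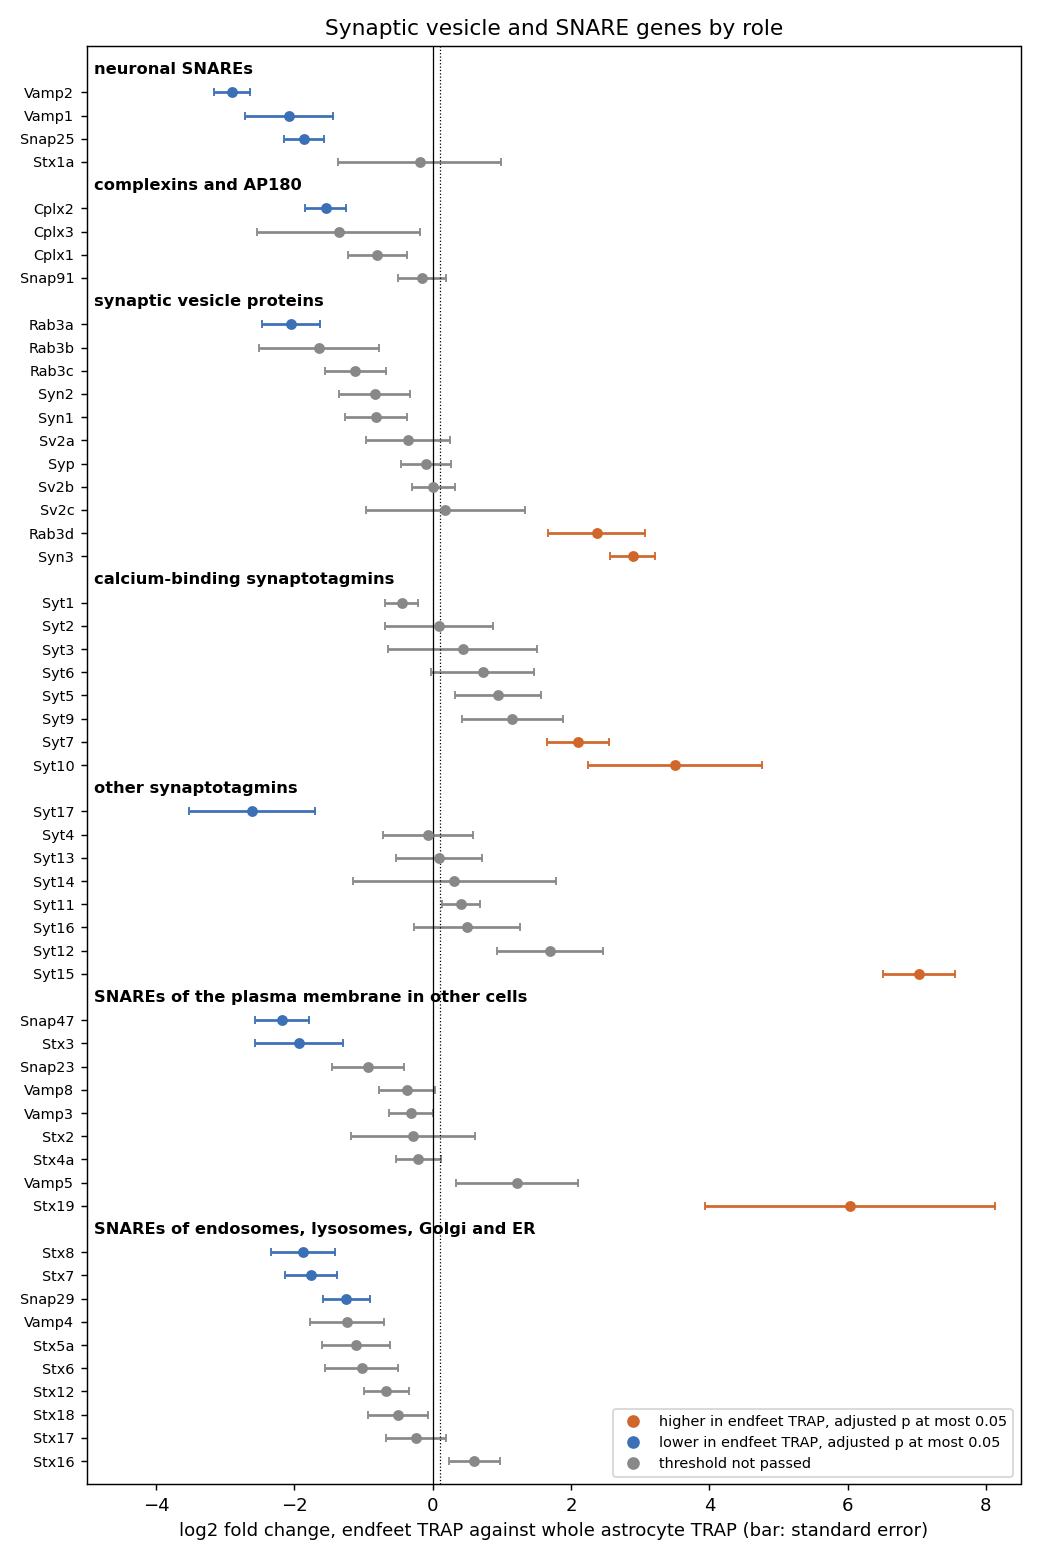
Log2 fold change of tested members, endfeet TRAP against whole astrocyte TRAP, grouped by role, with the standard error as bars, a solid line at 0 and a dotted line at the median of all genes (0.10). Vamp2, Vamp1 and Snap25 lie left of 0 at −2.90, −2.08 and −1.86, Syt15 stands apart on the right at 7.03, and the low-count members Stx19 and Syt10 have wide bars.

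Among the neuronal SNAREs, Vamp2, Snap25 and Vamp1 were lower, and Stx1a did not pass. Vamp2 (chr11:69088490-69092384), the main vesicle SNARE of brain synapses, stood at 856, 826 and 920 CPM in whole astrocyte TRAP and at 53.1, 125 and 155 CPM (lowest, median, highest) in endfeet TRAP. The groups did not overlap, and the endfeet library with the highest value was still far below the whole astrocyte libraries. The log2 fold change was −2.90 ± 0.259 (SE, n = 3 and 6, edgeR adjusted p = 3.45e-06). Snap25 (chr2:136713453-136782428), the plasma membrane partner, stood at 3330, 2860 and 2830 CPM against 586, 689 and 1300. It did not overlap either, although endfeet library 6 lay apart from the other 5, which were between 586 and 803. Its log2 fold change was −1.86 ± 0.289 (SE, edgeR adjusted p = 2.96e-04).

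Vamp1, the VAMP of spinal and motor synapses, stood at 50.5, 57.2 and 49.2 CPM against 3.99, 6.64 and 34.9, with no overlap and a log2 fold change of −2.08 ± 0.631 (SE, edgeR adjusted p = 0.0219). Its highest endfeet value came from library 4, and the Vamp1 call was lost with endfeet libraries 4 to 6 alone and when any 1 whole astrocyte library or endfeet library 2 was left out. Stx1a, a syntaxin of the synaptic plasma membrane, had low and scattered levels of 9.12, 10 and 10.2 CPM against 0, 2.45 and 31.3, so its groups overlapped and its value of −0.19 ± 1.18 (SE) did not pass (edgeR adjusted p = 0.915).

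Among complexins and AP180, Cplx2, a complexin of forebrain neurons that binds the assembled SNARE complex, was lower. It stood at 316, 276 and 330 CPM in whole astrocyte TRAP and at 75, 82 and 155 in endfeet TRAP, without overlap (log2 fold change −1.55 ± 0.296 SE, edgeR adjusted p = 0.0013). Cplx1 had a value of −0.80 with 1 overlapping library, endfeet library 1 at 134 CPM against 110 to 140 (edgeR adjusted p = 0.167). Without endfeet library 1 its value was −1.29, past the threshold. Snap91, which encodes the clathrin adaptor AP180 of vesicle retrieval and is no SNARE, differed by −0.16 (edgeR adjusted p = 0.755). Cplx3, a complexin best known from the retina, was at most 2.25 CPM in every library. Cplx4 had too few counts to test, with 34 counts in endfeet library 5 and 0 in the other 5.

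**Figure D2:**
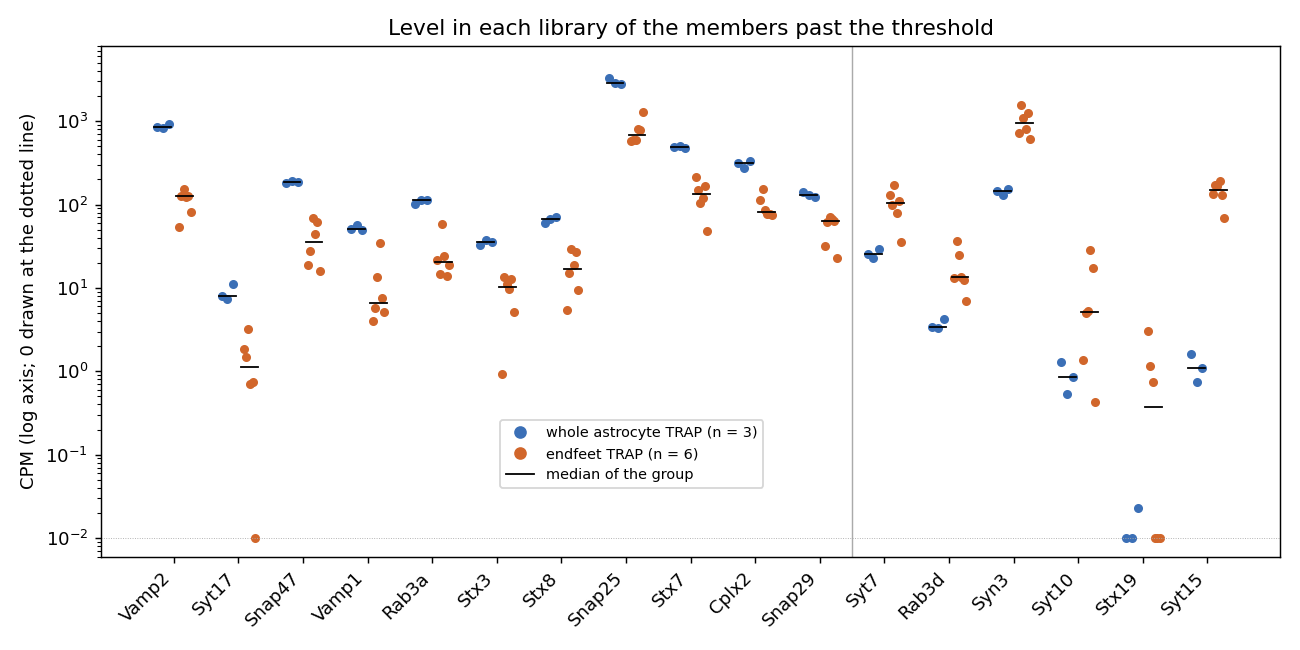
CPM in each library (log axis, 0 drawn at the dotted line) of members past the threshold, those lower to the left and the 6 higher to the right of the vertical line, with the group medians as bars. Vamp2 and Snap25 show no overlap between the 3 whole astrocyte and 6 endfeet libraries, Syt15 lies near 1 CPM in one group and above 69 CPM in the other, and Stx19 and Syt10 overlap.

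Among the 11 genes of synaptic vesicle proteins, 1 was lower and 2 were higher, beside 13.9% and 20.7% of all genes tested. Rab3a, the small GTPase of synaptic vesicles, stood at 101, 114 and 112 CPM in whole astrocyte TRAP and at 13.9, 20.4 and 58.5 in endfeet TRAP, the highest value being that of library 3. The groups did not overlap (log2 fold change −2.05 ± 0.419 SE, edgeR adjusted p = 0.00213). Rab3d, the Rab3 of secretory granules in exocrine and other non-neuronal cells, went the other way, from 3.39, 3.3 and 4.2 CPM to 6.90, 13.4 and 36.6. All endfeet libraries lay above all whole astrocyte libraries, with a log2 fold change of 2.37 ± 0.699 (SE, edgeR adjusted p = 0.0188), but the call was lost when any 1 whole astrocyte library was left out and with endfeet libraries 4 to 6 alone (1.57). Rab3c, another neuronal Rab3, was at 280 to 303 CPM against 25 to 204 without overlap, and its value of −1.12 did not pass (edgeR adjusted p = 0.0674), although it did without endfeet library 1, 4 or 6 (−1.25, −1.43 and −0.90). Rab3b had a value of −1.65 (edgeR adjusted p = 0.160), with endfeet libraries from 0.154 to 23 CPM, all below the 23.4 to 26.4 CPM of whole astrocyte TRAP, and it passed without endfeet library 5, at −2.50.

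The vesicle membrane proteins most used as synapse markers did not pass the test. Syp, synaptophysin, stood at 181, 146 and 165 CPM in whole astrocyte TRAP and at 66.3, 138 and 214 in endfeet TRAP (log2 fold change −0.10 ± 0.360 SE, edgeR adjusted p = 0.857). Its counted transcript shares 875 bases with an antisense gene. Sv2b, a glycoprotein of the vesicle membrane, stood at 86.7 to 134 CPM against 63.9 to 125, with a value of 0.01 ± 0.305 (SE, edgeR adjusted p = 0.982). The groups of both genes overlapped, and Sv2a and Sv2c had values of −0.36 and 0.18. Synapsins 1 and 2, which tether vesicles to the cytoskeleton, had values of −0.82 and −0.84 and did not pass (edgeR adjusted p = 0.171 and 0.220). For Syn1 all endfeet libraries (19 to 129 CPM) were below all whole astrocyte libraries (139 to 169 CPM), and for Syn2 the groups overlapped (28 to 118 against 112 to 128 CPM).

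Syn3 was called higher, at 144, 130 and 153 CPM in whole astrocyte TRAP and at 604, 945 and 1560 in endfeet TRAP (log2 fold change 2.89 ± 0.330 SE, edgeR adjusted p = 2.6e-05). The counted transcript was a non-coding retained-intron transcript of 4775 bases. It shares 1733 bases of exon, 36.3% of its length, with Timp3, a secreted inhibitor of matrix metalloproteinases that lies on the opposite strand (chr10:86347774-86349506). Timp3 stood at 279, 245 and 285 CPM against 944 to 2470, and the ratio of the Syn3 transcript to Timp3 was between 0.511 and 0.639 in every library. The sources used here do not state whether strand was used in counting, and without it reads of Syn3 and Timp3 cannot be told apart. The most counted Syn3 transcript that shares no exon with Timp3 had 138, 134 and 174 counts in whole astrocyte libraries and 50, 6, 87, 260, 93 and 0 in endfeet libraries 1 to 6. Counted by that transcript, Syn3 had a log2 fold change of 0.98 ± 1.16 (SE, edgeR adjusted p = 0.542). Without Syn3 the median over members was −0.34, and 5 members remained called higher.

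**Figure D3:**
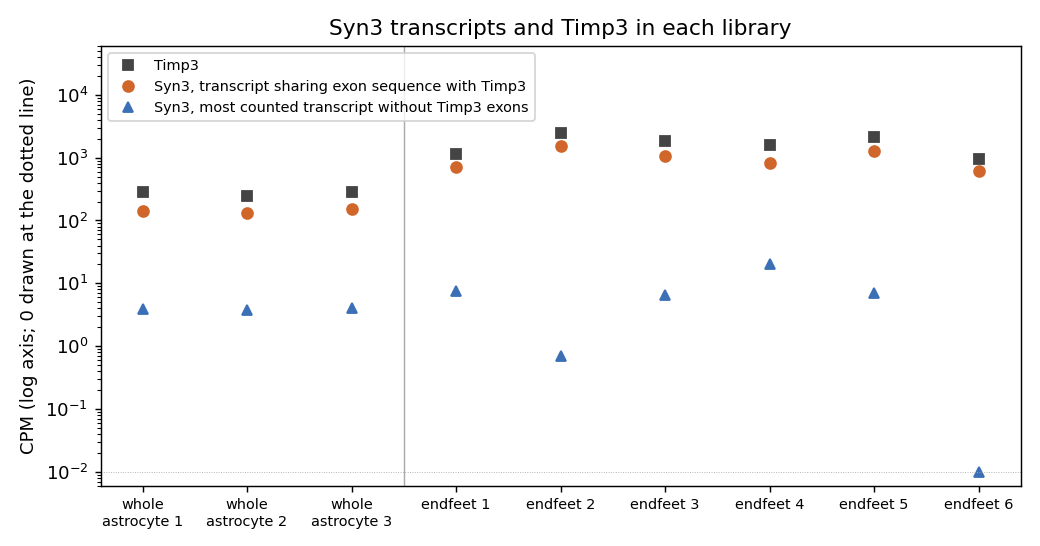
CPM in each of the 9 libraries (log axis, 0 drawn at the dotted line) of Timp3, of the counted Syn3 transcript that shares exon sequence with it, and of the most counted Syn3 transcript without Timp3 exons. The first Syn3 transcript follows Timp3 at a ratio of 0.511 to 0.639, and the other is low and scattered, with 0 counts in endfeet library 6.

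Other counted transcripts that shared exon bases with a gene in the tables, on the opposite strand, included those of Rab3a (29 bases with Mpv17l2), Snap29 (60 with Pi4ka), Stx18 (574 with Nsg1), Syn1 (5 with Araf) and Syn2 (90 with Timp4). With transcripts that share no exon with other counted genes, Rab3a kept its call, and Snap29 had no such transcript. Overlaps with annotated genes that have no counts here, such as those of Syt7 and Syp, stayed in.

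Among the 8 synaptotagmins that bind calcium, 2 were higher and none was lower, with a median log2 fold change of 0.84. Over all genes tested, 20.7% were called higher and 13.9% lower, so the share called higher among these few members was near that of all genes. Syt7 (chr19:10389090-10453180), a slow, high-affinity calcium sensor of lysosomes, dense granules and some synapses, stood at 25.7, 22.9 and 29 CPM in whole astrocyte TRAP and at 35.4, 106 and 171 in endfeet TRAP. The groups did not overlap, and library 6 was lowest (log2 fold change 2.10 ± 0.449 SE, edgeR adjusted p = 0.00294). The counted Syt7 transcript shares 83 bases with a non-coding gene on the other strand. Syt10, a synaptotagmin linked to secretion of growth factor in olfactory neurons, passed on low counts. It had 46, 19 and 37 counts in whole astrocyte libraries and 9, 43, 71, 358, 232 and 1 in endfeet libraries 1 to 6, or 0.527 to 1.28 CPM against 0.431 to 28.2. The groups overlapped, with library 6 lowest, and the log2 fold change was 3.50 ± 1.26 (SE, edgeR adjusted p = 0.0472). The Syt10 call was lost when any 1 whole astrocyte library or any 1 of endfeet libraries 2 to 5 was left out, with the value going down to 2.63 without library 4. Syt1, the calcium sensor of fast synaptic release, stood at 327, 282 and 350 CPM against 173, 219 and 284, with 1 endfeet library just above the lowest whole astrocyte library (−0.45 ± 0.243 SE, edgeR adjusted p = 0.175). The values of Syt2, Syt3, Syt5, Syt6 and Syt9 lay between 0.09 and 1.15 and did not pass, although Syt9 did without endfeet library 6, at 1.39.

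Among the other synaptotagmins, which lack some of the residues that bind calcium or act in other traffic, the largest difference of all members was seen. Syt15 (chr14:34219595-34230420) stood at 1.61, 0.749 and 1.10 CPM, from 58, 27 and 48 counts, in whole astrocyte TRAP, and at 135, 170, 165, 190, 132 and 69.4 CPM in endfeet libraries 1 to 6. The lowest endfeet library, library 6, had 161 counts. The groups lay far apart, with a log2 fold change of 7.03 ± 0.516 (SE, edgeR adjusted p = 6.91e-07). No exon of its counted transcript is shared with another gene. Endothelial and mural cell markers, given above, differed in the same direction with median log2 fold changes of 9.56 and 6.57 over 12 genes each, and their part in the Syt15 value was not tested.

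Syt17, a synaptotagmin of the Golgi and of endosomes, was lower, at 8.03, 7.27 and 11.1 CPM in whole astrocyte TRAP and at 0, 1.12 and 3.23 in endfeet TRAP (log2 fold change −2.61 ± 0.913 SE, edgeR adjusted p = 0.0414). The groups did not overlap, but endfeet libraries held between 0 and 43 counts, and the call was lost when any 1 whole astrocyte library or endfeet library 2 or 5 was left out. Syt11, a regulator of endocytosis in neurons and glia, was the most abundant of these per length. It stood at 250, 213 and 255 CPM against 219, 284 and 385, with overlap (0.41 ± 0.277 SE, edgeR adjusted p = 0.276). Syt12 had 10 to 12.2 CPM against 2.16 to 70.2, and all endfeet libraries but library 6 lay above whole astrocyte TRAP. Its value of 1.69 did not pass (edgeR adjusted p = 0.105), and it passed without library 6, at 1.93. Its counted transcript shares 950 bases with a non-coding gene on the other strand. Syt4, Syt13, Syt14 and Syt16 had values between −0.07 and 0.49, and Syt8 was at 0 in all 9 libraries, which allows up to 0.0689 to 0.0834 CPM in whole astrocyte and 0.223 to 1.29 CPM in endfeet libraries.

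SNAREs of the plasma membrane in other cells include those best known from astrocytes. Vamp3 (cellubrevin), the VAMP of recycling endosomes, stood at 280, 282 and 277 CPM in whole astrocyte TRAP and at 135, 210 and 278 in endfeet TRAP. Endfeet library 4 alone reached the whole astrocyte levels, the other 5 lying below them, and the value of −0.32 ± 0.316 (SE) did not pass (edgeR adjusted p = 0.459). Snap23, the widely expressed relative of Snap25, stood at 102 to 114 CPM against 14.4 to 102, with a value of −0.94 (edgeR adjusted p = 0.179). Stx4a, the syntaxin that pairs with Snap23, had a value of −0.21, and Vamp8, a VAMP of late endosomes and granules, a value of −0.37. Snap47, a SNAP protein without membrane anchor, was lower, at 180, 191 and 186 CPM against 16, 35.9 and 69.9. Its groups did not overlap (log2 fold change −2.18 ± 0.397 SE, edgeR adjusted p = 9.55e-04).

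Stx3, a syntaxin of apical membranes and ribbon synapses, was lower by its counted transcript, at 32.4, 37.1 and 35.3 CPM against 0.921, 10.3 and 13.6 (log2 fold change −1.93 ± 0.634 SE, edgeR adjusted p = 0.0316). The groups did not overlap, and the call was lost when any 1 whole astrocyte library or endfeet library 3 was left out. The counted Stx3 transcript, of 3068 bases, is annotated as a transcript of nonsense-mediated decay and not as coding. A coding Stx3 transcript of 2430 bases stood at 32.2 to 37.0 CPM against 0.921 to 13.9. A coding Stx3 transcript of 2810 bases, chosen after its values were seen, went the other way, from 1.64, 1.53 and 1.59 CPM to 2.89, 18.9 and 41.0. For Vamp1, a non-coding processed transcript of 5709 bases, also chosen after its values were seen, went the other way. It stood at 1.33, 2.11 and 2.53 CPM against 2.59, 30.9 and 52.2, above whole astrocyte TRAP in every endfeet library. A coding Vamp1 transcript of 2772 bases was lower, at 48.7 to 56.9 against 3.99 to 35.4 CPM. Another coding one, of 1400 bases, overlapped at 2.92 to 3.88 against 0 to 10.1 CPM. With counts summed over transcripts, which repeat shared reads, the values of Stx3 and Vamp1 were −0.84 and −0.85 and neither passed. Stx19, a syntaxin of epithelia without a membrane anchor, was called higher on 1 count in whole astrocyte TRAP and on 20, 10, 10, 0, 0 and 0 counts in endfeet libraries 1 to 6. Summed over libraries, the ratio of Stx19 was 81.2, with an exact 95% interval of 13.8 to 3290 for counting error only, and the fitted value of 6.03 ± 2.10 (SE, edgeR adjusted p = 0.041) depends on the count that the fit adds to every library. Among endfeet libraries Stx19 was above 0 in libraries 1 to 3 only, and it passed the count filter through these, the group where it is high. Its groups overlapped. The Stx19 call was lost when any 1 whole astrocyte library was left out, and with no filter beyond 1 count in total. Stx11, a syntaxin of immune cells, had 119 counts in endfeet library 2 and 61 in library 3, but at most 5 in the other endfeet libraries, and was not tested. Vamp5, a VAMP of muscle and endothelium, had a value of 1.22 and did not pass (edgeR adjusted p = 0.306), with endfeet library 1 at 0.461 and library 6 at 58.6 CPM, and it passed without library 1, at 1.44.

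Of the 10 genes for SNAREs of endosomes, lysosomes, Golgi and ER, 3 were lower and none higher, with a median of −1.07. Over all genes tested, 13.9% were called lower and 20.7% higher. Stx7, a syntaxin of late endosomes, stood at 495, 510 and 482 CPM in whole astrocyte TRAP and at 48.3, 134 and 216 in endfeet TRAP (log2 fold change −1.76 ± 0.381 SE, edgeR adjusted p = 0.00315). Stx8, its partner in late endosome fusion, stood at 59.9, 67.9 and 71.5 CPM against 5.37, 16.9 and 29.2 (−1.88 ± 0.466 SE, edgeR adjusted p = 0.00731). Both were without overlap. Snap29, a SNAP protein of endosomes and autophagosomes, stood at 141, 131 and 124 CPM against 22.8, 62.9 and 71.2, again without overlap, with a value of −1.25 ± 0.342 (SE, edgeR adjusted p = 0.0127), and its call was lost without whole astrocyte library 1 or 2. Vamp4, Stx5a and Stx6, of the Golgi and its trans side, had values of −1.24, −1.11 and −1.03 that did not pass (edgeR adjusted p = 0.0877, 0.0980 and 0.152). Vamp4 and Stx5a were nevertheless below whole astrocyte TRAP in every endfeet library. They passed without 1 endfeet library, Vamp4 without library 6 (−1.01), Stx5a without library 1 (−0.92) and Stx6 without library 3 (−1.49). Stx12, of recycling endosomes, stood at 414, 399 and 370 CPM against 139, 225 and 374, with 1 endfeet library, library 6, inside the whole astrocyte range. It had a value of −0.67 (edgeR adjusted p = 0.132) that passed without library 6, at −0.87, and Stx16 alone was positive, at 0.60.

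Levels can be set against each other only per length of the counted transcript, as CPM per kilobase (kb). In whole astrocyte TRAP, Snap25 came highest at 1420 ± 133 CPM per kb (SD, n = 3), followed by Vamp2 at 393 ± 21.9, Stx7 at 198 ± 5.65, Stx12 at 134 ± 7.71 and Vamp3 at 132 ± 1.23. The neighbours Stx12 and Vamp3 did not differ beyond their spread. In endfeet TRAP, Snap25 was again highest at 367 ± 131 CPM per kb (SD, n = 6), and Syn3, whose reads may be those of Timp3, came next. Vamp3 at 97.6 ± 31.0, Stx12 at 78.1 ± 29.7, Vamp8 at 70.4 ± 35.3, Syt11 at 58.8 ± 13.9 and Syp at 54.9 ± 21.2 followed, and these neighbours did not differ beyond their spread. Vamp2 went from rank 2 of the members to rank 9, at 50.6 ± 16.7 CPM per kb, and thus below Vamp3. Syt7 went from rank 32 to rank 10, at 49.4 ± 21.8, and Syt15 from rank 54 to rank 14, at 39.6 ± 11.7 CPM per kb against 0.319 ± 0.12.

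**Figure D4:**
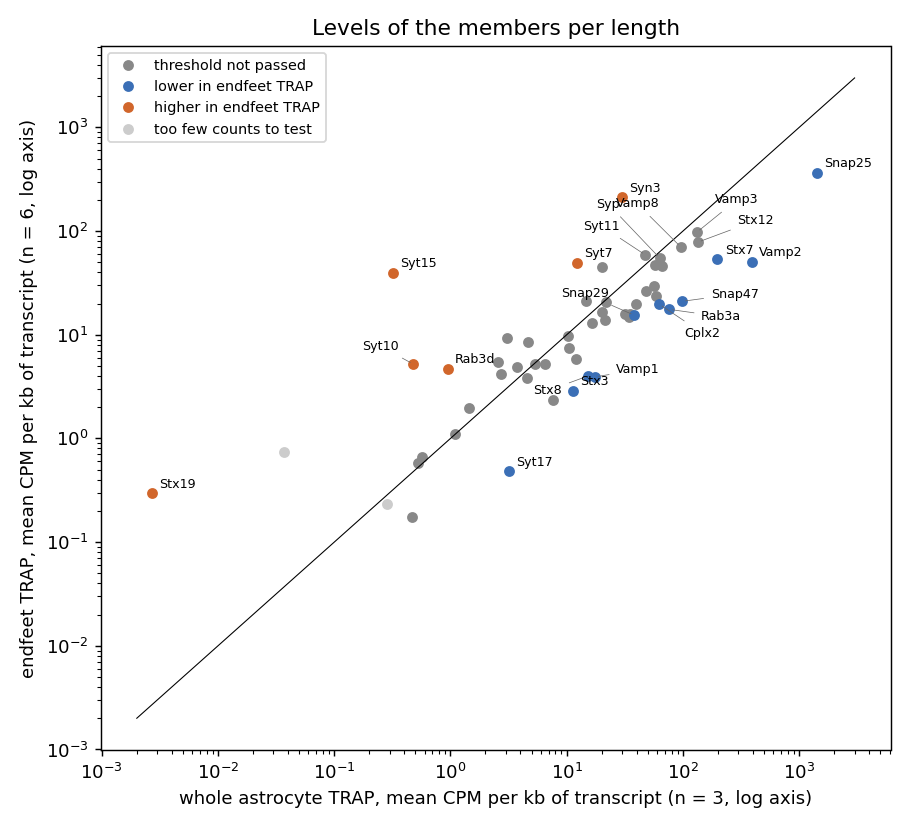
Mean CPM per kb of counted transcript in whole astrocyte TRAP (x axis, n = 3) and endfeet TRAP (y axis, n = 6), both log axes, with a line of equal level. Each point is a member with counts in both groups, Snap25 is highest on both axes (1420 and 367), Vamp2 lies below the line and Syt7 and Syt15 above it.

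Transcript length moved with the difference over all genes. The median log2 fold change was −0.75 for 3589 genes with counted transcripts of up to 2 kb, −0.05 for 5931 genes of 2 to 4 kb, 0.54 for 4160 genes of 4 to 8 kb and 1.37 for 747 genes over 8 kb. The shares called lower were 22.8%, 13.6%, 8.29% and 4.55%, and those called higher were 11.8%, 17.2%, 27.9% and 51.9%. Most members fell in the band of 2 to 4 kb, where 32 had a median of −0.59 and 7 were lower and 4 higher, and in that of 4 to 8 kb, where 13 had a median of −0.24, with 3 lower and 1 higher. The 8 shortest members had a median of 0.05, with 2 lower and 1 higher. Vamp2, Snap25 and Syt7 have counted transcripts of 2205, 2116 and 2116 bases. The part of length in these values was not tested.

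Neuron markers were also lower in sum, at 1470 to 1580 CPM in whole astrocyte TRAP and 735 to 1160 CPM in endfeet TRAP. Of 17 neuron markers, 2 were lower, Tubb3 at −2.96 and Nefl at −1.44 (edgeR adjusted p = 0.0113 and 0.0181). Another 1 was higher, Reln at 3.28 (edgeR adjusted p = 1.98e-04), and 14 did not pass. The median over the 17 markers was −0.76. Of all genes tested, 13.9% were called lower and 20.7% higher, so neuron markers were not called lower more often than genes at large. Divided by the summed neuron markers of the same library, Vamp2 stood at 0.536 to 0.627 in whole astrocyte TRAP against 0.0658 to 0.162 in endfeet TRAP, and Snap25 at 1.86 to 2.10 against 0.507 to 1.77, with library 6 highest. On this scale the groups lay apart for both genes. Syt1 stood at 0.183 to 0.238 against 0.216 to 0.325 with overlap. Syp stood at 0.0948 to 0.114 against 0.0665 to 0.265, with 5 of 6 endfeet libraries above every whole astrocyte library and library 4 below them. Sv2b stood at 0.0563 to 0.0858 against 0.0810 to 0.156, so that only endfeet library 2 lay within the whole astrocyte range. Without Reln, the neuron marker that was higher in endfeet TRAP, the ranges of Vamp2 stayed apart, at 0.539 to 0.631 and 0.0759 to 0.176. Those of Snap25 then overlapped through library 6, at 1.86 to 2.12 and 0.53 to 2.

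**Figure D5:**
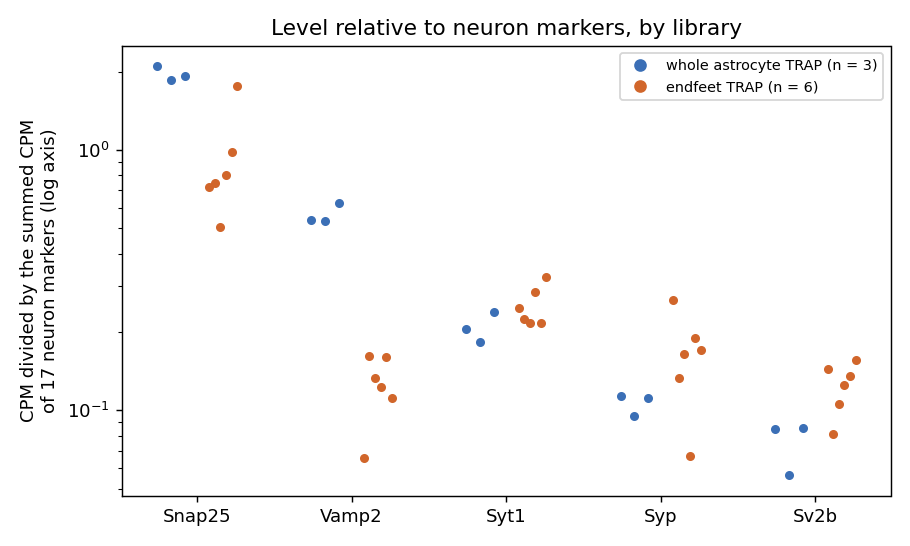
CPM of 5 members divided by the summed CPM of 17 neuron markers in the same library (log axis), 3 whole astrocyte and 6 endfeet libraries. Snap25 and Vamp2 are lower in every endfeet library (Vamp2 at most 0.162 against at least 0.536), and the groups of Syt1, Syp and Sv2b overlap.

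Genes that act with the members were counted in the same fit, in which 20.7% of all genes tested were called higher and 13.9% lower. Of 41 tested SNARE regulators and release site proteins, 3 were higher and 4 lower, with a median of −0.32. The largest changes were those of Pclo, the giant active zone scaffold Piccolo, which stood at 28.5, 20.5 and 26.5 CPM in whole astrocyte TRAP and 184, 458 and 1020 in endfeet TRAP (log2 fold change 4.45 ± 0.578 SE, edgeR adjusted p = 7.18e-05), and of Rab27b, a GTPase of granules and exosomes, at 23.1 to 24.3 against 0.154 to 2.60 CPM (−4.09 ± 0.8 SE, edgeR adjusted p = 0.00157). Neither overlapped. The counted transcript of Pclo has 16846 bases, in the length band where 51.9% of all genes were called higher. Of 23 tested genes of other vesicle membrane and recycling proteins, 3 were higher and none lower, with a median of −0.05. Sypl, a relative of synaptophysin in non-neuronal cells, changed most, from 24.2, 29.9 and 29.5 CPM to 143, 256 and 317 (3.22 ± 0.330 SE, edgeR adjusted p = 1.04e-05).

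None of the 5 tested vesicular transmitter transporters was called in either direction, and their summed level was 63.9 to 77.1 CPM against 62.9 to 138. Among 17 other SNAREs and Sec1/Munc18 proteins, which serve traffic between ER, Golgi and endosomes, 6 were lower and 1 higher, with a median of −0.86 and 16 negative values. Bet1, a SNARE of transport from ER to Golgi, stood at 176, 182 and 167 CPM in whole astrocyte TRAP and at 2.15, 15.5 and 32.7 in endfeet TRAP, without overlap (−3.44 ± 0.590 SE, edgeR adjusted p = 6.18e-04). Sec22c, an ER protein related to SNAREs, was higher, at 19.7 to 21.1 against 35.5 to 132 CPM (1.80 ± 0.485 SE, edgeR adjusted p = 0.0116). Members and other SNAREs of the endomembrane system thus shared a negative median, beside a median of 0.10 over all genes.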

How the data were processed

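RNA-seq of TRAP samples was measured in 3 whole astrocyte and 6 endfeet libraries, grouped by their labels. The authors amplified RNA with the Ovation kit, ran the Eoulsan pipeline, aligned reads to mm10 with Bowtie, removed reads with several alignments and counted them per Ensembl 75 transcript with HTSeq (0.5.3 per the labels' processing notes, which also name bcl2fastq 1.8.4). The strand setting of counting is not given in the sources used here. The deposited values are raw counts per transcript, without normalization. Of 75466 transcripts, 73164 were matched to GENCODE M21 (same build), and the 2302 without a match were not used. A gene's counts were those of 1 transcript, the one whose CPM added over the libraries was highest.

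Groups were compared with edgeR 4.0.16 in R 4.3.3 (TMM, filterByExpr, glmQLFit and glmQLFTest) over 14427 genes, with Benjamini-Hochberg adjustment over them and a threshold of 0.05. The SE is the size of the log2 fold change over the root of the F statistic. The code was tested on simulated counts. The members and gene lists were chosen with earlier results of these data known. Any member may be named. Values by library (of endfeet TRAP often the lowest, median and highest) are given for members past the threshold and for those with the highest CPM per kb of each role, and outside the members the gene with the largest change past the threshold in each direction of a list is named, with neuron markers. Fold changes of other SNARE regulators and markers come from the same fit. Alternatives were DESeq2 1.42.0 (its test, or its size factors in edgeR), limma 3.58.1 voom with group weights, other filters, summed transcripts, a replicate block, endfeet libraries 4 to 6 (whose library numbers run with those of whole astrocytes) and each library left out. After seeing the data, Syn3 by another transcript, transcripts without exons shared with other counted genes, and endfeet libraries 1 and 6 left out were added. The mean log2 TMM factor of endfeet TRAP less that of whole astrocyte TRAP was −0.088. Against CPM, this raised all log2 fold changes by that size. Counts over all members include 1 member whose own result is not reported here.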

Additional observations from a re-analysis of the deposited data

Results flagged for a closer look

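Dixon's test was applied to the 6 endfeet libraries of each of the 18 members past the threshold, and in 3 of them 1 library stood apart. Chance alone sets apart about 1 in 20 groups if the values are normally distributed, which was not tested for these CPM. Rab3a was at 58.5 CPM in endfeet library 3, against 13.9 to 24.2 in the others. Snap25 was at 1300 CPM in endfeet library 6, against 586 to 803 in the others. Vamp1 was at 34.9 CPM in endfeet library 4, against 3.99 to 13.5 in the others. All of these values were on the side of the whole astrocyte level but below it. Which property of the libraries goes with them was not tested.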

How the results depend on the processing

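Against 6 members higher and 12 lower, no member reversed under any alternative. Of the lower members, 8 of 12 passed under every alternative that gave them a value (among them Cplx2, Rab3a, Snap25, Snap47, Stx7, Stx8 and Vamp2), and of the higher members 2 of 6 did (Syt15 and Syt7). limma voom with group weights called 22 members lower and 8 higher, and the cause of the larger count was not tested. Leaving out 1 library at a time gave 3 to 8 members higher and 8 to 15 lower, and each whole astrocyte library left out gave 3 higher, losing Rab3d, Stx19 and Syt10. Without endfeet libraries 1 and 6, 9 were higher and 18 lower. With transcripts that share no exon with other counted genes, 4 of 51 tested members were higher and 11 lower. With Syn3 counted apart from Timp3, 5 were higher and 12 lower. Endfeet libraries 4 to 6 alone gave 5 and 15.

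Replicate numbers did not pair the libraries, since the deviations of libraries with the same number correlated at −0.038, 0.016 and 0.038. With the replicate block, 6 members were higher and 14 lower, but not all the same ones. Syt10, Stx3 and Syt17 lost their calls, and Syt12 (2.25) was called higher and Rab3b, Rab3c, Stx12 and Vamp4 lower. The depth of endfeet library 6, 2319495 counts, limits low members such as Syt10, Syt17 and Stx19 most.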
